A study of Mus musculus with 10 samples.

Results

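The 9 genes described here code for the core of the JAK-STAT pathway and for proteins that switch it off. The set of signal transducers holds 5 genes, the kinases Jak1, Jak2 and Tyk2 and the transcription factors Stat2 and Stat3. The set of negative regulators holds 4 genes, Socs1, Socs3, Ptpn2 and Usp18. Members were taken by gene name from GENCODE M21 (mm10), and every called interval that overlapped a gene extended by 10 kb was assigned to it. Strong intervals, those with a q-value of at most 0.01, were merged across the lists where they overlapped, which gave 92 merged regions at the 9 genes, 60 at the transducers and 32 at the negative regulators, of 204075 in all and 139057 within 10 kb of one of 21938 protein-coding genes.

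Chromatin accessibility was measured by ATAC-seq, in which a transposase cuts open chromatin, in Myc-CaP, a line of prostate cancer cells from a male FVB/NJ mouse that carried a Myc transgene. The 10 libraries fall into 5 groups of 2, harvested at 48 h: Ctrl (no agent), Oxali (2 µM oxaliplatin), Cispl (2 µM cisplatin), IFNγ (1000 pg interferon gamma, with no volume given in the labels) and Oxali + IFNγ (both agents at those amounts, also called the combination). Every group is 1 cell line, and the authors pooled the 2 libraries of a group before they called intervals, so each group is 1 list and no spread between replicates can be given. An interval in parentheses after the ratio of a region is a 95% exact binomial interval for counting error only, and none of the differences has a p-value. Of the 5 luminal prostate epithelium markers reported, Krt8 and Hoxb13 had a strong start-site region in all 5 lists, Krt18 in 2 and Epcam in 1, while Cdh1 had none in any, 0 of 4 leukocyte markers had one, and of 3 fibroblast markers Col1a1 did. Of the 2 endothelial markers, Cdh5 had none and Pecam1 was strong in 3 lists at a Ctrl level of 2.39.

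A cytokine receptor has no enzyme of its own, and JAK kinases bound to its tail phosphorylate STAT proteins, which pair, enter the nucleus and bind DNA. The IFNγ receptor uses JAK1 and JAK2, and its STAT dimers bind the gamma-activated sequence (GAS). Type I interferon receptors use JAK1 and TYK2, and STAT2 with IRF9 recognises the interferon-stimulated response element (ISRE). SOCS1 and SOCS3 are made in response to the signal and block the kinases, PTPN2 is a phosphatase that removes phosphate from JAK and STAT proteins, and USP18 shields the type I interferon receptor from JAK1 and also strips ISG15 from proteins. In tumour cells this loop sets how strongly interferon can raise antigen presentation genes.

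Sequences of 4 start sites are shown because they hold matches to the elements that STAT complexes bind. The start-site regions of Jak1, Jak2, Tyk2 and Ptpn2 also held matches, which are not printed. Holding a match is thus not particular to the 4 genes shown. The 2 intronic regions are shown because one was gained with all 4 treatments and the other stood above Ctrl in all 3 platinum lists. Capitals mark each match to GAS (TTCNNNGAA) or ISRE (GAAANNGAAA), searched on both strands with overlapping matches kept, and the sequences are the C57BL/6J reference (GRCm38.p6), not the FVB/NJ genome of the cells. The Socs1, Socs3 and Stat2 sequences are the 250 bases before the start in the RefSeq promoter table, which has an entry for 7 of the 9 members. The Usp18 sequence is the 250 bases before the GENCODE start, read from the genome. The Stat2 sequence was added after its match was seen. The Socs1 sequence (chr16:10785537-10785786, minus strand) holds 2 overlapping ISRE matches, that of Socs3 (chr11:117969367-117969616, minus strand) 1 GAS match, that of Stat2 (chr10:128270248-128270497, plus strand) 1 ISRE match and that of Usp18 (chr6:121245656-121245905, plus strand) 2 ISRE matches. The Jak1 sequence is the 200 bases around the summit of an intronic region called in all 4 treated lists and not in Ctrl (chr4:101256656-101256855, minus strand), and the Jak2 sequence is the same window of an intronic region (chr19:29292646-29292845, plus strand). Neither intronic window holds a match to these letters.
Socs1: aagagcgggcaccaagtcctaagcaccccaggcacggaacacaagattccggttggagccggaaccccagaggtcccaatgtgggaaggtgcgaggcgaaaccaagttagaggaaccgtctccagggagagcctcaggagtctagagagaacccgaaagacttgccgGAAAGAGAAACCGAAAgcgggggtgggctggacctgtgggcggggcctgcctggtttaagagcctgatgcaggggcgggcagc
Socs3: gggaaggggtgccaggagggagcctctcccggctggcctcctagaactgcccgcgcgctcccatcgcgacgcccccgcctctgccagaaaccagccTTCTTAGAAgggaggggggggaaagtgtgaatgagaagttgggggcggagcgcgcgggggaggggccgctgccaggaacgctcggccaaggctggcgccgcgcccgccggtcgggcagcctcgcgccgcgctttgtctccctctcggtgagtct
Stat2: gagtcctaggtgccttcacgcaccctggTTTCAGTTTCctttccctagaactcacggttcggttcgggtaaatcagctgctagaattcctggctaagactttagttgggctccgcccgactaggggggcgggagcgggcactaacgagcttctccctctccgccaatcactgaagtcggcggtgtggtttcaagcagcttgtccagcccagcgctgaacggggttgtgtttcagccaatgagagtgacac
Usp18: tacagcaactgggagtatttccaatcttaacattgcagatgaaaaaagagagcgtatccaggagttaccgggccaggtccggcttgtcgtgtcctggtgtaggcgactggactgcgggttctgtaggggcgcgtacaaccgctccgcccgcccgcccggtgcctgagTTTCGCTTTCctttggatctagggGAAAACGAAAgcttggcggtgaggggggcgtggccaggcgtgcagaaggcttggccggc
Jak1: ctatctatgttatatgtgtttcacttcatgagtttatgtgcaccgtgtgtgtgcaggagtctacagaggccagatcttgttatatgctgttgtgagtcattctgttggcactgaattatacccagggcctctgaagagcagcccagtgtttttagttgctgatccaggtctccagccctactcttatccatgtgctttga
Jak2: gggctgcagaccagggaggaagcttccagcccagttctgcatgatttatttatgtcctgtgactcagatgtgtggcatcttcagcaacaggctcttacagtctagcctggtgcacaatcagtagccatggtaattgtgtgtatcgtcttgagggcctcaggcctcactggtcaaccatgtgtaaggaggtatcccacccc

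Among 32851 RefSeq promoter rows, 7.02% held a GAS match and 2.98% an ISRE match in the same 250 bases. Within 100 bp of the summit, GAS matched in 9 of the 92 member regions (9.78%, 95% Wilson interval 5.23 to 17.6) against 5.74% of all regions near genes. ISRE matched in 5 (5.43%, interval 2.34 to 12.1) against 2.28%. These matches divided as 5 of 60 transducer regions and 4 of 32 regulator regions for GAS, and 3 and 2 for ISRE. Besides the Socs1 and Usp18 start sites, the ISRE matches lay in Jak1 introns 19.9 and 68.3 kb past the start and in a Stat3 intron at 7.75 kb. Since this window is centred on the summit, the Stat2 and Socs3 elements printed above, which lie farther out, are not counted, and the Socs3 start site counts through another GAS match nearer its summit.

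All 9 genes were open at their start in every list. The share of all genes open in every list was not counted. Over the 21938 protein-coding genes, which can share such a region, 11248 main start-site regions had an interval in both Ctrl and IFNγ. To compare lists, the number of extended transposase cuts at the summit (the pileup) was recovered from the deposited values and divided by the genome background of that list, which is proportional to depth, and the quotient is called the level. The genome background ran from 9.62 in IFNγ to 13.8 in Cispl, so IFNγ was the shallowest list, with 79.3% of the Ctrl depth. On this scale the median log2 ratio to Ctrl over all regions near genes was already shifted, by 0.12 after Oxali, 0.08 after Cispl, -0.26 after IFNγ and 0.10 after the combination, and the changes at the members are read against those values.

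Start sites of the kinases fell with every treatment on the genome-background scale, and Oxali + IFNγ gave the lowest level at Jak1 and at Jak2. Jak1, the kinase shared by both interferon receptor families, had a start-site level (chr4:101264284-101265840) of 132 in Ctrl, 83.8 after Oxali, 67.1 after Cispl, 86.9 after IFNγ and 59.7 after the combination. All 4 treated lists lay below Ctrl, at ratios of 0.636 (0.586 to 0.689), 0.508 (0.468 to 0.552), 0.659 (0.605 to 0.717) and 0.453 (0.415 to 0.494). Jak2, the second kinase of the IFNγ receptor, had the most open start site of the 9 in Ctrl (chr19:29250943-29252283), with a level of 256, against 212, 177, 183 and 140 in the same order of treatments. Its ratio with Oxali, 0.827 (0.784 to 0.873), was nearer to 1 than that of the other kinases, and with Oxali + IFNγ it was 0.547 (0.516 to 0.580). Tyk2, which serves type I interferon receptors (chr9:21130798-21131950), fell from 157 in Ctrl to 85.4, 76.3, 115 and 80.8. Here the platinum lists lay close together, and Oxali + IFNγ over Oxali was 0.946 (0.866 to 1.03), an interval that holds 1.

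Both STAT start sites were lower in every treated list on that scale. The Stat2 start site (chr10:128270144-128270919) had levels of 104 in Ctrl, 64.1 after Oxali, 55.9 after Cispl, 71.7 after IFNγ and 50.8 after the combination. The Stat3 start site (chr11:100938660-100940205), whose summit lies in the untranslated leader of the gene, had levels of 209, 128, 123, 136 and 89.7. Oxali + IFNγ gave the lowest value at both genes, with ratios to Ctrl of 0.488 (0.443 to 0.536) for Stat2 and 0.429 (0.400 to 0.460) for Stat3. Measured against Oxali alone, the combination was lower again at Stat3, at 0.702 (0.649 to 0.759), and at Stat2, at 0.793 (0.712 to 0.882).

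Of the negative regulators, 3 had start sites lower by amounts like those of the transducers, and at Usp18 the differences from Ctrl were smaller on the genome-background scale. The start-site region of Socs1, an inhibitor of JAK catalytic activity (chr16:10784989-10786681), had a level of 145 in Ctrl, 101 after Oxali, 79.9 after Cispl, 92.3 after IFNγ and 80.4 after the combination. Socs3, which blocks JAKs at receptors of the interleukin 6 type (chr11:117968305-117970212), had levels of 205, 154, 122, 153 and 116. At Ptpn2 they were 159, 101, 86.7, 105 and 66.5, and its ratio with Oxali + IFNγ, 0.419 (0.386 to 0.454), was the lowest of the 9 genes. At all 3 genes every treated list lay below Ctrl.

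The Usp18 start site (chr6:121245520-121246260) held the 2 ISRE matches printed above and was the least open of the 9 in Ctrl. Its level was 65.9 in Ctrl, 69.6 after Oxali, 59.6 after Cispl, 55.0 after IFNγ and 61.1 after the combination, a narrower span than at any of the other 8 genes. Ratios to Ctrl were 1.06 (0.955 to 1.17), 0.904 (0.819 to 0.998), 0.834 (0.746 to 0.932) and 0.928 (0.840 to 1.02), so the intervals of Oxali and of Oxali + IFNγ hold 1. Start sites of like openness fell more: among the 3208 main start-site regions of all genes with a Ctrl level from 50 to 100, the median log2 ratio was -0.40, -0.58, -0.55 and -0.82, against 0.08, -0.15, -0.26 and -0.11 for Usp18. The share of those regions with a ratio at or above that of Usp18 was 5.55% after Oxali, 3.18% after Cispl, 11.6% after IFNγ and 3.77% after the combination. With Oxali the log2 ratio of Usp18 was below 0 when lists were scaled by the median ratio over regions held by all of them (the median-ratio scale), at -0.07, and on the deposited fold, which divides by the local background instead, at -0.20. On the deposited fold it was -0.38 with Cispl, -0.26 with IFNγ and -0.43 with the combination. The medians over the 9 member start sites on that measure were -0.34, -0.39, -0.25 and -0.61 in the same order from Oxali to the combination, so Usp18 lay at the middle of the members with Cispl and IFNγ there. The comparison with start sites of all genes was made on the genome-background scale.

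**Figure D1:**
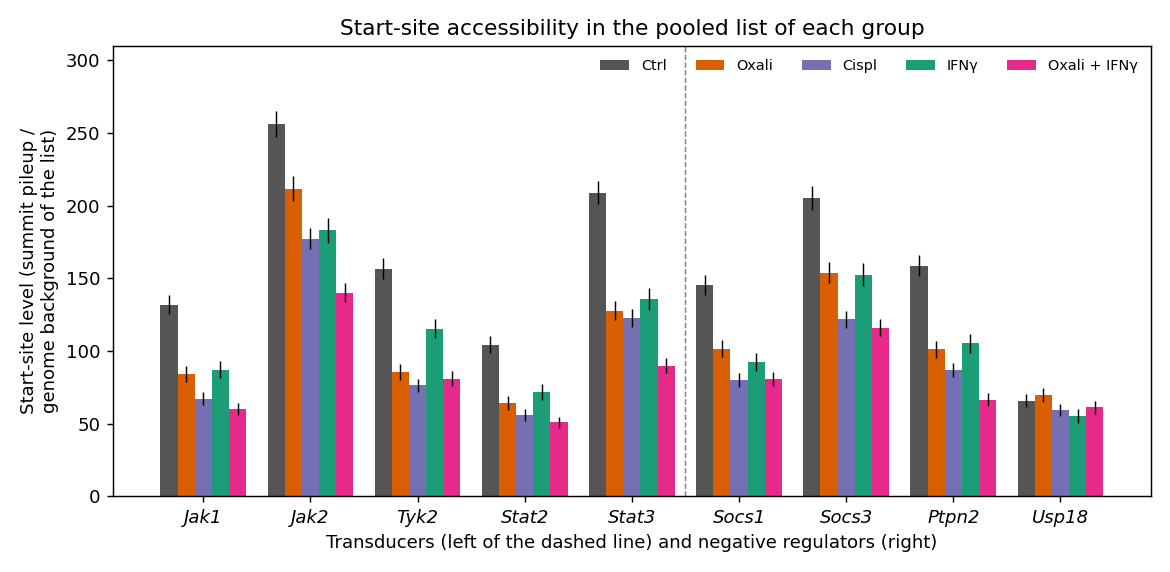
Start-site level (summit pileup divided by the list's genome background, vertical axis from 0) of the 9 genes in the 5 pooled lists, with 95% Poisson intervals for counting error only. At 8 genes all treated bars sit below the Ctrl bar, and at Usp18 the 5 bars lie between 55.0 and 69.6.

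Counted at a 1.5-fold threshold, the main start-site region was lower at 5 of 9 members after Oxali, 7 after Cispl, 4 after IFNγ and 8 after the combination. Over all genes the shares were 30%, 54.9%, 43.3% and 67.2%, so a large part of the genome's start sites was lower too. The transducers gave 4, 4, 2 and 5 of these 5 genes, and the negative regulators 1, 3, 2 and 3 of 4. In the class of 5054 start sites of all genes with a Ctrl level of 100 or more, the median log2 ratios were -0.58, -0.80, -0.62 and -1.10. For the 8 members of that class, all but Usp18, the share of the class with a ratio at or above their own ran from 7.38% (Jak2 with Oxali) to 93.6% (Tyk2 with Oxali). When lists are scaled instead by the total pileup of start-site regions, which makes the summed start-site pileup equal in all lists by construction, 6, 7, 4 and 6 of the 9 member start sites lie below Ctrl. The numbers are 9, 9, 9 and 9 on the median-ratio scale, 9, 9, 8 and 9 on the deposited fold, and 8, 9, 9 and 9 on the genome-background scale.

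Outside their own start sites the members' regions lay on both sides of Ctrl. Jak2, Tyk2, Ptpn2 and Socs1 each had a region away from any start that was at least 2-fold above Ctrl in 1 or more platinum lists while their start sites were lower, and the Stat2 window had one at the start of a neighbouring gene. In the Jak2 intron 40.9 kb past the start (chr19:29292195-29293086, sequence above) the pileup was 134 in Ctrl, 295 after Oxali, 326 after Cispl, 93 after IFNγ and 342 after the combination. The 3 platinum lists stood apart from Ctrl and IFNγ, at depth-scaled ratios of 2.37 (1.93 to 2.93), 2.15 (1.75 to 2.64), 0.876 (0.665 to 1.15) and 2.40 (1.96 to 2.95). Adding IFNγ to Oxali left this region within counting error of Oxali alone, at 1.01 (0.864 to 1.19).

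A Tyk2 intron region at 24.9 kb (chr9:21105874-21106676) had pileups of 50 in Ctrl, 110 after Oxali, 76 after Cispl, 58 after IFNγ and 139 after the combination. It was high in the 2 lists that contain oxaliplatin, at 2.37 (1.68 to 3.38) and 2.62 (1.88 to 3.69), and Cispl over Oxali was 0.566 (0.417 to 0.765). In the Stat2 window the region with the highest ratio (chr10:128297688-128298414) lies at the start of Il23a, which codes for a subunit of interleukin 23, and its pileups were 48, 113, 108, 44 and 153. Its ratio to Ctrl reached 3.00 (2.16 to 4.24) with Oxali + IFNγ. Smaller ratios were seen at the highest regions of Jak1 and Stat3. The Jak1 intron at 19.9 kb, one of the ISRE matches, reached 1.71 (1.10 to 2.71) with Cispl, and the Stat3 intron at 8.60 kb, a GAS match, reached 1.64 (1.12 to 2.41) with Oxali + IFNγ. With IFNγ alone they were at 1.06 (0.614 to 1.83) and 1.10 (0.700 to 1.71). The other member regions with a match near the summit, where held by both lists, lay below Ctrl with IFNγ.

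Negative regulators gave the largest single ratio of the 9 genes among regions present in all lists. In a Ptpn2 intron 27.0 kb past the start the pileup was 28 in Ctrl, 103 after Oxali, 85 after Cispl, 32 after IFNγ and 119 after the combination. The ratios were 3.96 (2.59 to 6.25), 2.68 (1.73 to 4.26), 1.44 (0.841 to 2.49) and 4.00 (2.63 to 6.27), in the gene whose start site fell furthest with the combination. A region 7.60 kb from the Socs1 start, past the end of this short gene (chr16:10777460-10778126), had pileups of 77, 141, 110, 71 and 184, with 1.97 (1.48 to 2.64) for Oxali and 2.25 (1.71 to 2.97) for Oxali + IFNγ. Cispl was lower than Oxali there, at 0.639 (0.493 to 0.826).

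At Socs3 the region past the gene's end, 11.8 kb from the start (chr11:117957883-117958572), was 1.55-fold (1.25 to 1.92) above Ctrl after IFNγ alone, with pileups of 162 in Ctrl, 212 after Oxali, 194 after Cispl, 199 after IFNγ and 264 after the combination. The region 9.54 kb upstream of Socs3 (chr11:117978838-117980197) went the other way with IFNγ, at 0.530 (0.418 to 0.668), while the platinum lists were above Ctrl on this scale at 1.28 to 1.34 and below it on the deposited fold. In the Jak2 intron at 57.2 kb (chr19:29308679-29309160) the pileup was 63 in Ctrl and 25 with IFNγ, a ratio of 0.501 (0.302 to 0.807). Usp18 had the narrowest range of the 9, from 0.624 (0.460 to 0.843) in the intron at 14.8 kb with Oxali + IFNγ to 1.36 (1.09 to 1.72) in the intron at 3.03 kb with Cispl. The lowest region in the Stat2 window lay at the start of Pan2, a deadenylase subunit gene, at 0.386 (0.351 to 0.425) with Oxali + IFNγ. Of the 9 regions with the highest ratio, one in each gene, the interval lay above 1 in 7 after Oxali, 5 after Cispl, 1 after IFNγ and 7 after the combination. Those regions were picked for their ratio, so the count describes them and nothing more.

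**Figure D2:**
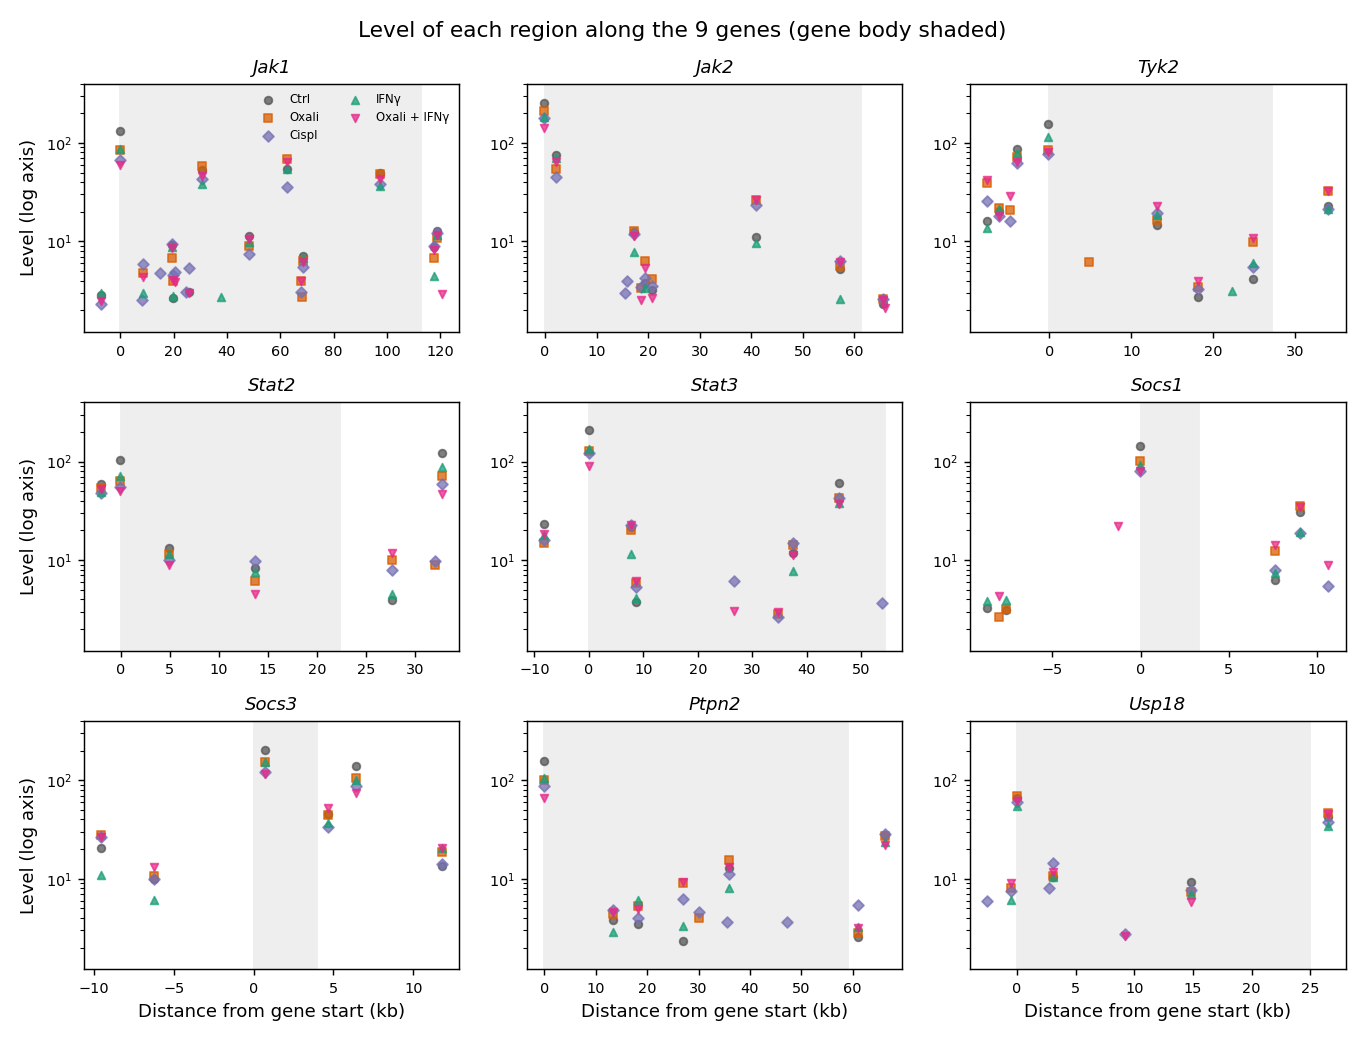
Level of each merged region (vertical log axis) against the distance of its summit from the gene start (horizontal axis, kb) in the 9 gene windows, with one symbol per list and the gene body shaded. The highest point in each window except that of Stat2 is the start site in Ctrl or, at Usp18, in Oxali, and the platinum symbols stand above Ctrl at the Jak2 intron 40.9 kb and the Ptpn2 intron 27.0 kb past the start.

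Taken as sets, the transducers and the negative regulators had mean levels that lay close together in every list. Among the 35 transducer and 20 regulator regions present in all lists, the mean level was 47.6 and 47.8 in Ctrl, 38.3 and 40.4 after Oxali, 32.7 and 33.3 after Cispl, 36.0 and 35.2 after IFNγ, and 32.7 and 34.0 after the combination. The median log2 ratio of the transducers was -0.06 after Oxali (interval of the median -0.27 to 0.17), -0.09 after Cispl (-0.38 to 0.15), -0.22 after IFNγ (-0.47 to -0.12) and -0.13 after the combination (-0.23 to 0.08). For the negative regulators it was 0.12 (-0.06 to 0.28), -0.07 (-0.44 to 0.33), -0.31 (-0.59 to 0.22) and 0.16 (-0.35 to 0.35). Over all regions near genes the medians were 0.12, 0.08, -0.26 and 0.10. The intervals of both sets hold these values, except that of the transducers with the combination, which lay below. The intervals of the 2 gene sets overlap with every treatment, and they treat regions as separate although regions of one gene share their source. The difference between the sets itself was not tested.

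At a threshold of 1.5-fold, 10 of 59 member regions held by both lists were higher with Oxali, 7 of 60 with Cispl, 2 of 58 with IFNγ and 10 of 60 with Oxali + IFNγ. The shares over all regions near genes were 26.1%, 23.9%, 3.52% and 27.2%, so the members' 16.9% with Oxali and 11.7% with Cispl were below the background. Lower regions numbered 7, 13, 14 and 14, or 11.9%, 21.7%, 24.1% and 23.3%, against 9.09%, 14.1%, 20.4% and 17.5%. Scaling by the median ratio changed the split between higher and lower from 10 and 7 to 7 and 11 with Oxali, from 2 and 14 to 7 and 4 with IFNγ, and from 10 and 14 to 6 and 14 with Oxali + IFNγ. Away from start sites alone, the regions at least 1.5-fold higher were 9 of 46, 6 of 48, 2 of 45 and 9 of 48, against 30.6%, 28%, 4.28% and 31.7% of all such regions.

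The 2 regions higher with IFNγ on the genome-background scale, 3.45% of the member regions against the 3.52% of all, were the one past the end of Socs3 described above and a Ptpn2 intron at 18.3 kb, with a pileup of 42 in Ctrl and 59 with IFNγ.

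**Figure D3:**
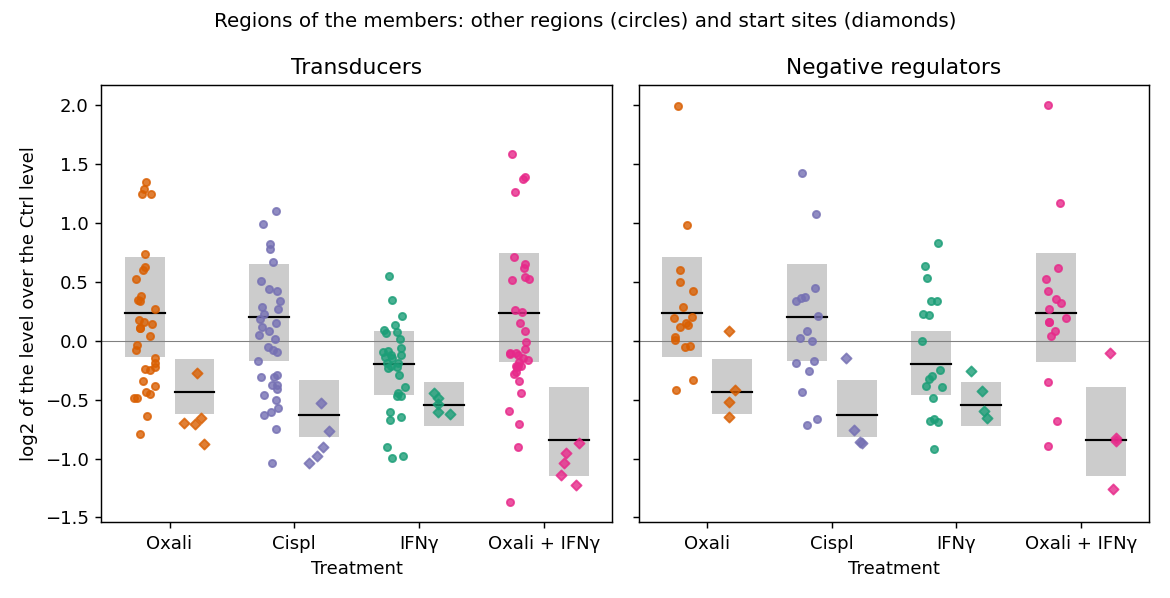
Log2 ratio of the level to Ctrl for each member region held by both lists, with main start sites as diamonds and other regions, a few of them at starts of neighbouring genes, as circles. Grey boxes span the quartiles and black lines the median over all genes, for regions away from starts on the left of each treatment and for main start sites on the right. Start sites lie below 0 except Usp18 with Oxali, and the other regions spread to both sides.

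More regions were called in the platinum lists than in Ctrl in both gene sets, as over all regions near genes. Of the 60 transducer regions, 39 were called in Ctrl, 46 after Oxali, 54 after Cispl, 39 after IFNγ and 49 after the combination. Of the 32 regulator regions the numbers were 22, 24, 28, 23 and 25. Over all regions near genes 55.5% were called in Ctrl, 70.7%, 81.6% and 78.7% in the Oxali, Cispl and combination lists and 52.7% in IFNγ, and the members' shares in that order were 66.3%, 76.1%, 89.1%, 80.4% and 67.4%. Present in all 5 lists were 55 of the 92 (59.8%, against 43.6% of all regions near genes), and 17 were called in a single list (18.5%, against 22.4%). Of these, 10 were in Cispl, which is 10.9% of the member regions against 10.5% of all, and none was in Ctrl alone, against 1.37%. The strong intervals covered 27.8 kb of the transducer windows in Ctrl, 28.1 after Oxali, 35.9 after Cispl, 27.8 after IFNγ and 32.6 after the combination, and 12.9, 15.2, 16.3, 13.7 and 16.4 kb of the regulator windows.

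An interval counted as gained if it was strong in a treated list and overlapped no deposited Ctrl interval. Gained intervals made up 14 of 74 with Oxali (18.9%), 26 of 89 with Cispl (29.2%), 6 of 69 with IFNγ (8.70%) and 14 of 76 with Oxali + IFNγ (18.4%). Over all genes 29.2%, 35.7%, 12% and 34.8% of intervals were gained, so the members lay below the background share in every list. By gene set, the transducers had 9, 15, 4 and 9 (18.8%, 25.9%, 9.09% and 17.6% of their intervals). The negative regulators had 5, 11, 2 and 5 (19.2%, 35.5%, 8% and 20%), so their share with Cispl was near the 35.7% over all genes. Of the 62 strong Ctrl intervals at the members, 2, 2, 3 and 2 were lost, against 8.99%, 5.56%, 15.3% and 7.58% over all genes.

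The Jak1 intron at 8.53 kb (sequence above) was gained with all 4 treatments, more than 7 kb from the nearest Ctrl interval. Its pileup was 54 after Oxali, 82 after Cispl, 29 after IFNγ and 56 after the combination, or levels of 4.79, 5.96, 3.01 and 4.34, so it was a weak site beside the start-site level of 132 in Ctrl. Other regions gained with all 3 platinum lists were weak introns of Jak1 at 67.6 kb, with levels of 3.99, 3.05 and 3.95, of Jak2 at 18.7 kb, with 3.37, 3.41 and 2.56, and of Stat3 at 34.8 kb, with 2.84, 2.62 and 2.94. A stronger one lay 4.81 kb upstream of Tyk2 inside Cdc37, a kinase chaperone gene (chr9:21135917-21136207), with levels of 20.8, 16.2 and 29.0, but its intervals began 213 to 277 bp from a Ctrl interval. Usp18 also had a region gained with all 4 treatments, 0.54 kb upstream of its start (chr6:121245239-121245458), with levels of 8.07, 7.56, 6.03 and 9.07. It lay 71 to 81 bp from the Ctrl start-site interval. Regions found in the 3 platinum lists and in neither Ctrl nor IFNγ were 4 of the 92 member regions (4.35%), against 10.1% of all regions near genes. All 4 were at transducers and none at negative regulators.

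With IFNγ alone 6 intervals were gained. Besides the Jak1 and Usp18 regions just given, IFNγ gained a Jak1 intron at 37.7 kb with a level of 2.70, an interval upstream of Jak1 at 2.29 that lay 104 bp from a Ctrl interval, and a Tyk2 intron at 22.3 kb at 3.12. At Socs3 it gained an interval at 26.5, which lay 328 bp from the Ctrl interval inside one merged region past the gene's end (chr11:117963152-117964735). The summit of that merged region had a level of 140 in Ctrl and was lower with all treatments, at 104, 87.9 and 99.6 with the single agents and at a ratio of 0.537 (0.496 to 0.582) with the combination. With a q-value of at most 1e-05, the 4 gains at the transducers came to 1 and the 2 at the negative regulators to 1. IFNγ lost 3 intervals, 2 of Jak2 and 1 of Tyk2, and no regulator interval.

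Gains and losses occurred side by side at Socs1. Oxali + IFNγ gained 3 intervals there, among them one 1.28 kb upstream of the start with a pileup of 284 and a level of 22.0, which lay 65 bp from the Ctrl start-site interval. Lost with Cispl and with Oxali + IFNγ were 2 weak intervals 7.64 and 8.69 kb upstream, at Ctrl levels of 3.13 and 3.30, and the second was lost with Oxali too. Leaving out intervals within 500 bp of one in the other list brought the gains of the negative regulators from 5, 11, 2 and 5 to 1, 5, 0 and 2, and those of the transducers to 5, 11, 3 and 4.

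**Figure D4:**
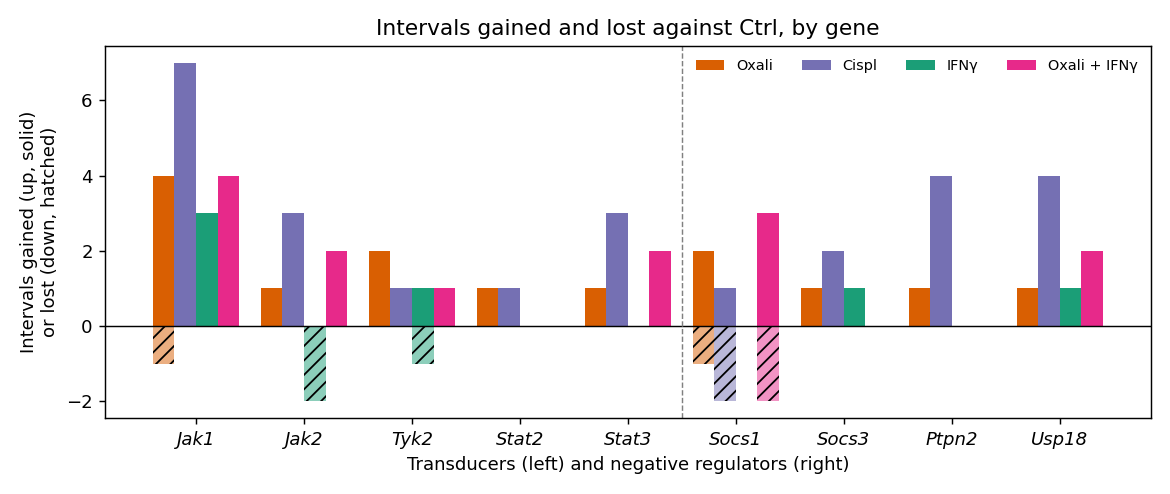
Number of intervals gained (solid, upward) and lost (hatched, downward) against Ctrl at each gene in the 4 treated lists. Cispl gave the most gains at Jak1, with 7, and at Ptpn2 and Usp18, with 4 each, and losses were found at Jak1, Jak2, Tyk2 and Socs1.

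The rest of the pathway, taken as 6 further transducers and 14 further negative regulators, had gained shares near or below those over all genes. Gained intervals made up 25.6%, 30.2%, 9.09% and 35.6% of those at the transducers and 18.9%, 27.9%, 13.5% and 27.1% at the negative regulators, in the order Oxali, Cispl, IFNγ and Oxali + IFNγ, against the 29.2%, 35.7%, 12% and 34.8% given above. At least one gained interval was found at 4, 6, 3 and 5 of the 6 transducer genes and at 11, 13, 7 and 12 of the 14 regulator genes in the same order, and at 9, 9, 4 and 6 of the 9 members. Over all protein-coding genes the shares were 62.3%, 70.2%, 35.1% and 68.2%. Long genes hold more intervals, so these gene counts are not adjusted for length. The median log2 ratio with Oxali + IFNγ was highest at Ptpn11, which codes for the phosphatase SHP-2, with 0.76 over 10 regions, and at Stat4, with 0.67 over 7. It was lowest at Pias1, a STAT-binding SUMO ligase gene, with -1.39 over 3 regions, and at Jak3, with -1.29 in the 1 of its 4 regions held by both lists.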

How the data were processed

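ATAC-seq libraries were processed by the authors with the ENCODE ATAC-seq pipeline, with adapters trimmed, reads aligned to mm10 by Bowtie2 2.2.8 and poorly mapped, duplicate and mitochondrial reads removed (versions per the submitters' processing notes). For each group the authors pooled both libraries and called intervals with MACS2 2.1.0 at a p-value of 0.01, filtered against blacklisted regions. The deposited lists give, for each summit, a fold enrichment (pileup plus 1 over local background plus 1), −log10 p and −log10 q values, and a display score derived from p, which was not used. The Cispl list ends at a −log10 p of 2.99 and the others at 2.00. Lists were assigned to groups by the agent and dose in their names.

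The whole-number pileup at each summit was recovered from the fold and −log10 p, and 100% of summits matched the deposited −log10 p within 0.01. It was divided by the lowest common local background of the list. Strong intervals numbered from 113014 (IFNγ) to 171785 (Cispl). A level is the highest summit of a merged region in a list. A start site is 1 kb either side of a coding start, and where several regions met it the one with the highest summed level was taken as the main one. Named regions were the start site of each gene, those gained in all 3 platinum lists or with IFNγ, and the highest and lowest ratio among regions held by all lists. Other pathway genes were named by the 2 highest and 2 lowest medians with Oxali + IFNγ. Intervals are 95%: exact conditional binomial for ratios of single regions, Wilson for shares and order-statistic for medians over regions. Both ends of a fragment are counted, so cuts are not independent and the intervals are too narrow. The members and gene lists were chosen with earlier results of these data known. Steps ran in Python 3.11.15 with scipy 1.17.1 and were tested on simulated data. Alternative filters, windows, scales and measures were tried. A pair of the luminal markers checked is not reported here.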

Additional observations from a re-analysis of the deposited data

How the results depend on the processing

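No paired analysis was possible because both libraries of a group were merged ahead of interval calling, and for the same reason no library could be left out. Of 346 alternative shares and medians, 294 stayed within the 95% interval of the value reported and 50 moved outside it. A further 2 changed sign where the reported interval excluded 0. Sign changes of values whose interval held 0 were counted only as within or outside that interval. Of 380 alternative log2 ratios of named regions, 220 stayed within the interval, 141 moved outside it and 19 changed sign by the same rule. Shares of called, gained and lost regions stayed within that interval with all deposited regions, with a minimum −log10 p of 3, with lists scaled to the shallowest, with an overlap of at least 0.5 of the shorter interval, with a 50 kb window and with merged regions counted (this last chosen after seeing the data), although 50 kb raised the numbers from 9, 15, 4 and 9 to 24, 39, 14 and 32 gained at the transducers and from 5, 11, 2 and 5 to 21, 36, 12 and 28 at the negative regulators, and the losses from 1, 0, 3 and 0 to 8, 3, 11 and 8 and from 1, 2, 0 and 2 to 4, 3, 3 and 8. With q at most 1e-05, called transducer regions in Cispl came to 96.3% and gained transducer intervals with IFNγ to 2.78% (1 in place of 4). With gene bodies alone, and with 5 kb, called regulator regions in Cispl came to 100% and 95.7%, and losses came to 0% at both sets for Oxali and at the negative regulators for Cispl and the combination. With gene bodies alone, regulator gains came to 1, 6, 0 (0%) and 1. Fewer bases were searched there. Without intervals within 500 bp of the other list, gains were 7.84% at the transducers with Oxali + IFNγ and 3.85%, 16.1%, 0% and 8% at the negative regulators, and regulator losses with Oxali and with Oxali + IFNγ were 0%.

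Scaling by the total pileup of start-site regions turned every transducer median from negative to positive. In the order from Oxali to the combination they came to 0.39, 0.58, 0.35 and 0.74. Only the IFNγ median among them had a reported interval that excluded 0. The medians of the negative regulators moved to 0.57, 0.59, 0.25 and 1.03. Of these, the Cispl and IFNγ medians, whose intervals held 0, had been negative and changed sign as well. This scale adds 0.45, 0.66, 0.57 and 0.87 to every log2 ratio. Among log2 ratios whose 95% interval excluded 0, it turned the sign at named start sites of Jak2 (0.17 with Oxali, 0.13 with Cispl, 0.084 with IFNγ), Tyk2 (0.13 with IFNγ), Stat2 (0.028 with IFNγ), Socs1 (0.016 with Oxali + IFNγ), Socs3 (0.030 with Oxali, 0.14 with IFNγ, 0.045 with Oxali + IFNγ) and Usp18 (0.52 with Cispl, 0.31 with IFNγ), at the Pan2 start (0.10 with IFNγ), at the merged region 6.41 kb past the Socs3 start (0.028 with Oxali, 0.079 with IFNγ) and in the Usp18 intron at 14.8 kb (0.19 with Oxali + IFNγ). Ratios whose interval held 0 could turn too, as at the Usp18 start with Oxali + IFNγ, from -0.11 to 0.76. The median-ratio scale moved the transducer medians to 0.030 with IFNγ (a change of sign) and -0.27 with Oxali + IFNγ. It adds -0.15 to log2 ratios with Oxali, so the regulator median of 0.12, whose interval held 0, changed sign too. The regions 1.5-fold lower with IFNγ came to 8.33% of transducer and 4.55% of regulator regions. On the deposited fold the Stat3 start site was at 0.0082 after IFNγ, and the region upstream of Socs3 at -0.14 after Oxali, -0.20 after Cispl and -0.25 after the combination. The cause of those changes was not tested. Highest-ratio regions with an interval above 1 stayed above Ctrl on the other scales and measures.

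Start-site regions alone had medians of -0.68, -0.83, -0.48 and -0.99 at the transducers and, at the negative regulators, -0.42 after Oxali, -0.81 after Cispl and -0.84 after the combination. With a missing level set to the genome background, the transducer median with IFNγ was -0.093. At 2-fold, transducer regions lower were 0%, 5%, 0% and 10%, and higher with Cispl 2.5%. At the negative regulators 0%, 0%, 0% and 5% were lower, and higher were 4.76% with Oxali and 0% with IFNγ, since fewer regions pass a larger fold. Over whole regions GAS matched in 21.7% of transducer regions, against 14.1% of all regions near genes, since more bases were searched. Regions with few cuts at the summit have the least precise ratios.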
